A study of Mus musculus with 4 samples.

Results

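Store-operated calcium entry and release through inositol trisphosphate (IP3) receptors were examined through the genes of 10 channel proteins and channel sensors: *Stim1*, *Stim2*, *Orai1*, *Orai2*, *Orai3*, *Itpr1*, *Itpr2*, *Itpr3*, *Trpc1* and *Trpm7*. They were chosen by gene symbol, and every probe set that carried exactly 1 of these symbols was taken. This gave 10 of 20586 genes and 24 of 45037 probe sets, with 1 to 6 probe sets per gene.

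When an agonist such as phenylephrine activates a Gq-coupled receptor, phospholipase C makes IP3. IP3 opens its receptors in the endoplasmic reticulum so that stored calcium enters the cytosol. STIM proteins sense the emptying of the store and open ORAI channels in the plasma membrane, which refill it. PMCA4, encoded by *Atp2b4*, is a plasma membrane pump that carries calcium out of the cell. The comparison therefore asks how the transcripts of calcium entry and release differed between fibroblasts with and without this pump.

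RNA came from cultured cardiac fibroblasts of male mice aged 3 months, kept in culture for 4 days. The 4 conditions were untreated WT, WT with phenylephrine, untreated PMCA4-/- and PMCA4-/- with phenylephrine, where phenylephrine, an α1-adrenergic agonist, was given at 30 μM for 72 h. PMCA4-/- mice carry a deletion in every cell that takes out the start codon of the gene, and the RNA of each condition was pooled from 3 batches of cells. Each condition was read on 1 Affymetrix array, so the difference within a pair of arrays had no replicate check and no p-value was available. Genotype cannot be told apart from the mice and batches of cells that each genotype came from. Whether both arrays of a genotype shared batches is not stated, so the untreated and phenylephrine pairs are not read as independent. In bulk RNA, fewer cells of a type and less RNA per cell cannot be told apart.

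The intensities were estimates from PUMA, a probabilistic model of the probe signals, and are given on a linear scale. The median PUMA intensity was 34.0 on each array. Across counted genes the correlation between arrays was 0.995 within a genotype and 0.857 to 0.860 between genotypes. *Atp2b4* itself was read by 1 probe set, with 19.6 in untreated WT, 23.3 in WT with phenylephrine, 31.6 in untreated PMCA4-/- and 37.9 in PMCA4-/- with phenylephrine. Where this probe set lies with regard to the deletion is not stated in the paper or the tables, so its values are no check of the labels.

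Of the fibroblast markers, 15 of 16 passed the intensity filter, and their summed intensity was 119544 to 124587 in WT and 123032 to 129359 in PMCA4-/-. *Dcn* (decorin) was at 14589 to 17933 and *Col1a2* at 12824 to 13586 over the 4 arrays, while *Tcf21* was below the filter. Others of this list were less even and ran in opposite ways. *Lum* was at 5700 to 6248 in WT against 2922 to 3521 in PMCA4-/-, and *Col1a1* at 930 to 933 against 1461 to 1854. None of 12 measured cardiomyocyte markers and none of 7 measured lymphocyte markers passed, with sums of 113 to 145 and 27 to 43. Endothelial markers passed in 2 of 10 cases, with sums of 320 to 341, and *Pecam1* and *Cdh5* were below the array median on every array. Most of the sum was *Tek*, at 240 to 258 in WT and 222 in PMCA4-/-. *Egfl7* passed through PMCA4-/- alone, at 16.0 to 23.7 in WT against 51.1 to 58.2 in PMCA4-/-. Among smooth muscle and pericyte markers, 5 of 10 passed, and their sum was 3656 to 3709 in WT against 12050 to 12189 in PMCA4-/-, most of it *Acta2* at 2512 to 2549 against 10209 to 10268. *Rgs5* of the same list ran the other way, at 185 to 186 against 30.3 to 34.4, and *Myh11* was below the filter. Macrophage markers passed in 4 of 12 cases and summed to 1546 to 1716 in WT and 2227 to 2490 in PMCA4-/-. Most of this was *Cd14*, at 891 to 987 against 1295 to 1431. *Csf1r* was at 153 to 180 against 378 to 492, and *Ptprc* and *Itgam* were below the filter. The other markers that passed differed little, *Lyz2* at 379 to 422 against 431 to 441 and *Adgre1* at 43.9 to 49.4 against 39.9 to 44.5. Mesothelial and epicardial markers passed in 2 of 7 cases, with sums of 654 to 675 against 984 to 1018. Most of this was *Tbx18*, at 534 to 557 against 854 to 928, while *Wt1* ran the other way, at 87.7 to 91.9 against 41.0 to 57.4. Schwann and neuronal markers passed in 2 of 7 cases, with sums of 157 to 173 against 200 to 225. A higher marker value is not read as more cells of the type that names its list. The part of these marker differences in the values of the channel genes was not tested.

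*Itpr3*, the type 3 IP3 receptor, was higher in PMCA4-/- by 1.89-fold without and by 2.68-fold with phenylephrine, the latter being the widest separation among the counted channel genes in that pair. *Trpc1*, a canonical transient receptor potential channel, was measured above the array median in both WT samples and in neither PMCA4-/- sample. All 3 ORAI genes were lower in PMCA4-/- in both pairs, by small amounts except for *Orai2* in the untreated pair. The STIM genes, the other IP3 receptors and *Trpm7* differed by less than 1.5-fold at the probe sets that stood for them.

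Each gene was read at its probe set of highest mean PUMA intensity and was counted above a mean of 35.1, the median of the 45037 probe-set means. This kept 11424 genes in all and 9 of the 10 channel genes. *Trpc1* was not counted, with a mean of 31.6. Of the 24 probe sets, 18 were above the filter and 6 below. A difference of at least 2-fold within a pair was called.

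In the untreated pair, 1 of the 9 counted channel genes was at least 2-fold lower in PMCA4-/- (*Orai2*), against 5.16% of all counted genes, and 0 were at least 2-fold higher, against 4.89%. In the phenylephrine pair, 1 was at least 2-fold higher (*Itpr3*), against 5.23% of all counted genes, and 0 were at least 2-fold lower, against 5.32%. With a threshold of 1.5-fold, the untreated pair held 1 higher gene (*Itpr3*) and 1 lower gene (*Orai2*), against 10.9% and 11.5% of all counted genes. At the same threshold the phenylephrine pair held 1 higher gene (*Itpr3*) and 0 lower genes, against 11.6% and 11.9%. With 9 genes, each of these counts is near its background.

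The median log2 difference, PMCA4-/- minus WT, of the 9 counted channel genes was −0.16 untreated and −0.10 with phenylephrine, beside −0.01 in both pairs for all counted genes. The untreated median had no stable direction: it was 0.15 with a filter at the upper quartile of intensity, which leaves 7 of the genes, and 0.15 after subtraction of the nearest genes. The median size of the difference without regard to sign was 0.28 and 0.22, beside 0.29 and 0.30 for all counted genes. The median size in the channel genes was thus not above that of all counted genes. In both pairs *Stim1*, *Itpr2* and *Itpr3* were higher in PMCA4-/- and *Stim2*, *Orai1*, *Orai2*, *Orai3* and *Itpr1* were lower. The direction differed between the pairs for *Trpm7* alone among the 9. The share of all counted genes with the same direction in both pairs was not computed, so this count is not read as a result about the channel genes.

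**Figure D1:**
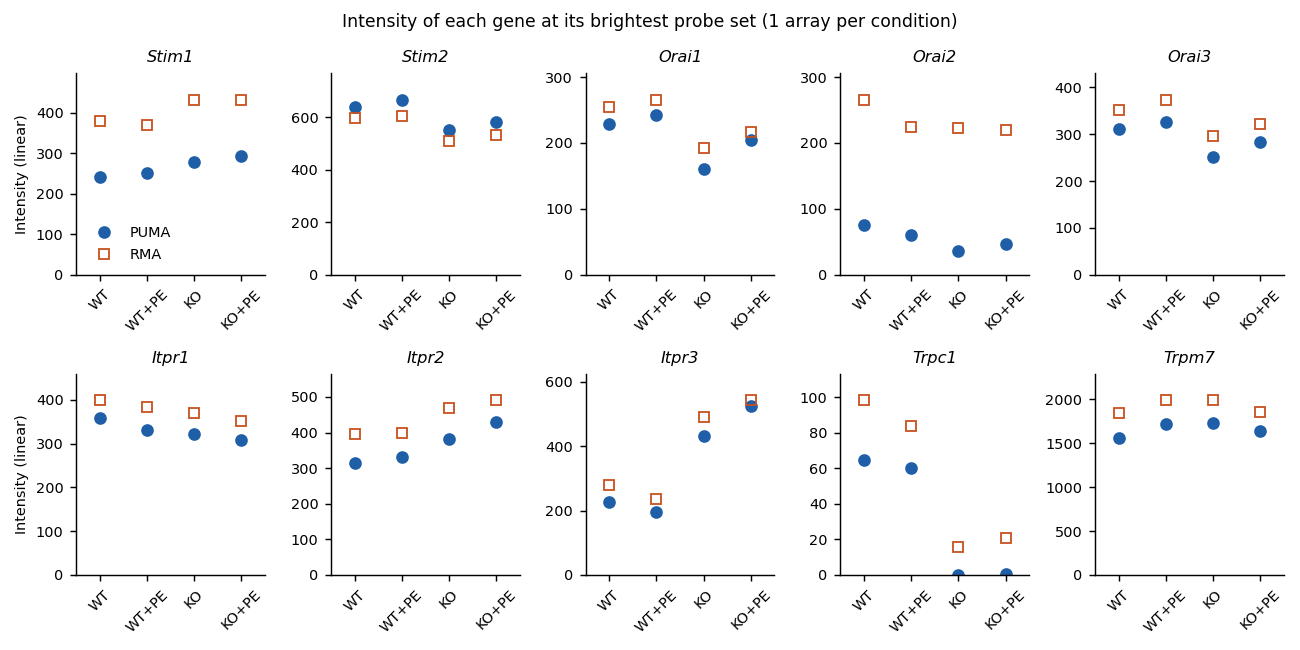
PUMA (filled circles) and Robust Multiarray Average (RMA, open squares) intensity on a linear axis from 0, for each of the 10 genes at its brightest probe set, on the 4 arrays (KO is PMCA4-/-, PE is phenylephrine). *Itpr3* stood at 196 to 227 in WT and 431 to 526 in PMCA4-/- with PUMA, and *Trpc1* at 60.5 to 65.0 against 0.256 to 0.509.

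STIM1 is the main sensor of store depletion and STIM2 responds to smaller falls in stored calcium. *Stim1* at probe set 1448320_at had PUMA intensities of 241 in untreated WT, 252 in WT with phenylephrine, 278 in untreated PMCA4-/- and 293 in PMCA4-/- with phenylephrine. Both PMCA4-/- arrays were above both WT arrays, with log2 differences of 0.21 untreated and 0.22 with phenylephrine. The other *Stim1* probe set, 1436945_x_at, had 157, 153, 167 and 193 in the same order, with differences of 0.09 and 0.34. These differences were of ordinary size: 37.1% of counted genes had a smaller difference than *Stim1* in the untreated pair, and 37.8% with phenylephrine.

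*Stim2* lay the other way. Its probe set 1434219_at had 640 and 667 in WT, without and with phenylephrine, and 551 and 582 in PMCA4-/-. Both PMCA4-/- arrays were below both WT arrays, with log2 differences of −0.22 and −0.20. The other probe set, 1441024_at, was at 17.4 to 23.5 on the 4 arrays, below the array median on each, and had −0.43 untreated and 0.18 with phenylephrine. The phenylephrine difference at 1434219_at was 0.06 in WT and 0.08 in PMCA4-/-, and the separation of the genotypes was about as wide with treatment as without.

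The ORAI genes encode the pore of the store-operated channel, with ORAI1 the main subunit in most cells. *Orai1* at 1424990_at had 229 in untreated WT, 243 in WT with phenylephrine, 161 in untreated PMCA4-/- and 204 in PMCA4-/- with phenylephrine. Neither PMCA4-/- array reached the lower WT array, and the untreated PMCA4-/- culture was the lowest of the 4. The log2 difference was −0.51 in the untreated pair, larger than that of 72.6% of counted genes, and −0.25 in the phenylephrine pair, larger than that of 43.7%. The other *Orai1* probe set, 1424989_at, had 92.9 and 93.8 in WT against 80.3 and 81.4 in PMCA4-/-, with −0.21 and −0.20.

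*Orai2* gave the widest disagreement between probe sets of this family. At 1434762_at it had 76.2 in untreated WT, 59.6 in WT with phenylephrine, 36.6 in untreated PMCA4-/- and 46.0 in PMCA4-/- with phenylephrine. The PMCA4-/- arrays were again both below the WT arrays, and the untreated PMCA4-/- value was close to the array median of 34.0. The log2 difference was −1.06, 2.08-fold, without phenylephrine and −0.37 with it. At the other *Orai2* probe set, 1434763_at, the values were 49.2, 51.6, 46.3 and 50.6, with differences of only −0.09 and −0.03. The single channel gene called in the untreated pair thus rested on 1 of its 2 probe sets.

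*Orai3*, which has 1 probe set, 1434064_at, had 310 and 327 in WT and 251 and 284 in PMCA4-/-. Its log2 differences were −0.31 and −0.20. Over the ORAI genes with PUMA, all 5 probe sets were lower in PMCA4-/- in both pairs, from −1.06 to −0.09 untreated and from −0.37 to −0.03 with phenylephrine. With RMA all 5 were lower untreated, and with phenylephrine 4 were lower and 1 higher, *Orai2* at 1434763_at with 0.20. Among all counted genes 49.0% were higher in PMCA4-/- in the untreated pair, and 49.3% with phenylephrine, and the 5 probe sets read 3 genes in the same RNA, so they are not independent. Read as 1 value per gene, each of the 3 genes was lower in PMCA4-/- in both pairs under all 7 settings in which its value was computed.

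**Figure D2:**
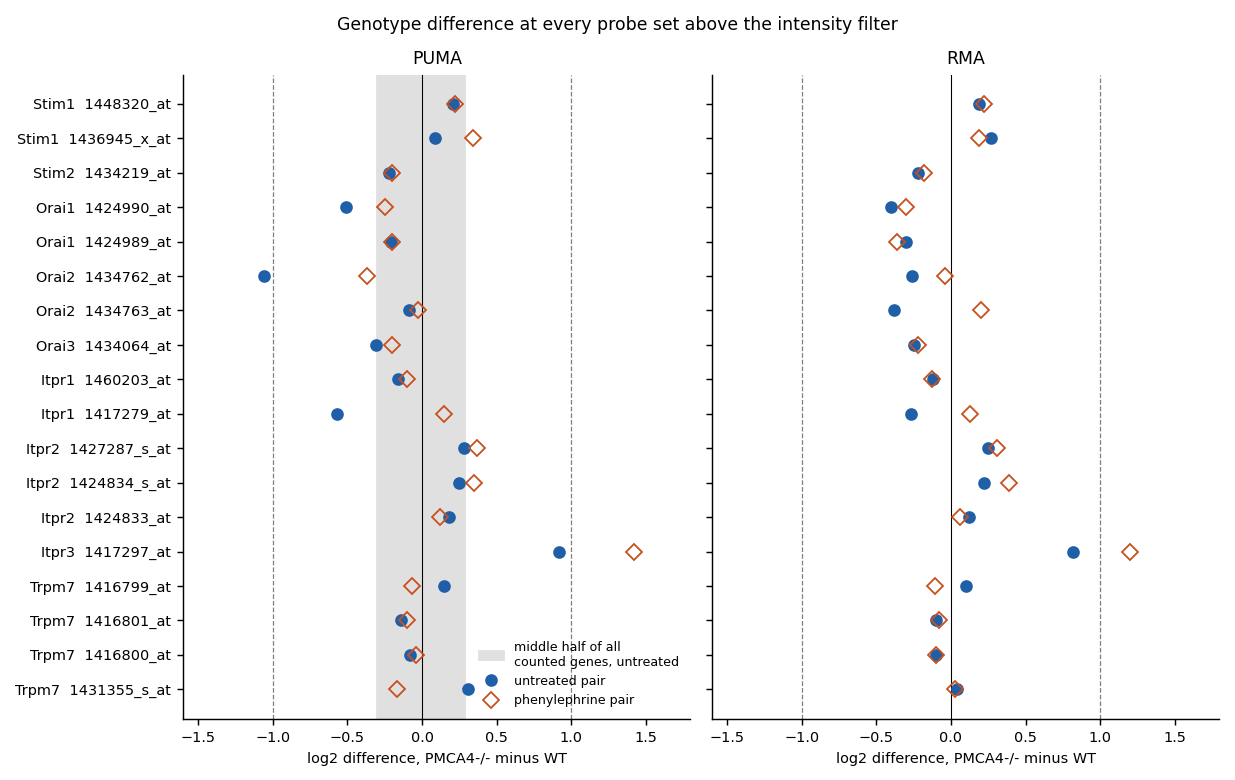
Log2 difference, PMCA4-/- minus WT, at the 18 probe sets above the intensity filter, with PUMA in the left panel and RMA in the right panel; filled circles are the untreated pair, open diamonds the phenylephrine pair, dashed lines mark 2-fold and the grey band in the left panel runs from −0.30 to 0.29, the quartiles of all counted genes in the untreated pair. The *Itpr3* points lie far to the right in both panels, and the untreated *Orai2* point at −1.06 with PUMA lies at −0.26 with RMA.

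IP3 receptors release calcium from the endoplasmic reticulum and differ in their sensitivity to IP3, type 2 being the most sensitive and type 3 the least. *Itpr1*, at 1460203_at, had 359 and 331 in WT and 321 and 309 in PMCA4-/-, without and with phenylephrine. The differences of −0.16 and −0.10 were smaller than those of most counted genes. At 1417279_at *Itpr1* had 102, 78.2, 68.8 and 86.5, so the genotypes overlapped, with −0.57 untreated and 0.15 with phenylephrine.

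*Itpr2* had 6 probe sets. The brightest, 1427287_s_at, had 314 in untreated WT, 331 in WT with phenylephrine, 381 in untreated PMCA4-/- and 429 in PMCA4-/- with phenylephrine. The PMCA4-/- arrays were both above the WT arrays, with log2 differences of 0.28 and 0.37. The other probe sets above the filter ran the same way. At 1424834_s_at the values were 161, 156, 191 and 198, with differences of 0.25 and 0.35, and at 1424833_at they were 87.6, 90.9, 99.3 and 99.0, with 0.18 and 0.12. The remaining 3, 1427693_at, 1444418_at and 1421678_at, lay between 2.11 and 17.9, under the array median on every array. Their PUMA differences were 0.83, 2.0 and 2.13 in the untreated pair and 0.05, 0.28 and 0.90 in the phenylephrine pair, while the RMA differences were −0.14 to 0.38 in the same pairs. A 2-fold PUMA difference at that intensity was therefore not read as a difference in *Itpr2*.

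*Itpr3* had 1 probe set, 1417297_at. Its PUMA intensity was 227 in untreated WT, 196 in WT with phenylephrine, 431 in untreated PMCA4-/- and 526 in PMCA4-/- with phenylephrine. The lower PMCA4-/- value was well above the higher WT value, and the separation was wider with phenylephrine than without. The log2 difference was 0.92 in the untreated pair, larger than that of 88.6% of counted genes, and 1.42 in the phenylephrine pair, larger than that of 93.7%. With RMA the intensities were 279, 237, 492 and 544 and the differences 0.82 and 1.20. All 4 values of *Itpr3* were far above the array median under PUMA, but with 1 probe set no second reading of the gene was at hand.

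The IP3 receptor family therefore had no common direction. Of its 6 probe sets above the filter, 4 were higher and 2 lower in PMCA4-/- in the untreated pair, from −0.57 to 0.92, and 5 were higher and 1 lower in the phenylephrine pair, from −0.10 to 1.42. *Itpr1* was the lower gene and *Itpr2* and *Itpr3* the higher ones.

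TRPC1 forms cation channels at the plasma membrane and has been tied to store-operated entry in several cell types. At probe set 1421096_at *Trpc1* had 65.0 in untreated WT, 60.5 in WT with phenylephrine, 0.256 in untreated PMCA4-/- and 0.509 in PMCA4-/- with phenylephrine. It was above the array median on both WT arrays and close to 0 on both PMCA4-/- arrays. Because the PMCA4-/- values are below the array median, the fold is read as a lower bound: *Trpc1* was at least 1.91-fold lower without phenylephrine and at least 1.78-fold lower with it, each value under the array median being raised to that median. The PUMA differences as given, −7.99 and −6.89 on the log2 scale, depend on values under that median and are no measure of size. RMA gave 98.6 and 83.8 in WT against 15.5 and 20.9 in PMCA4-/-, with differences of −2.67 and −2.0.

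The other *Trpc1* probe set, 1421095_a_at, did not measure the gene above the array median on any array. Its PUMA intensities were 9.04, 2.63, 0.672 and 1.94, and its RMA intensities lay between 7.41 and 7.64, with RMA differences of −0.03 and −0.04. The low reading of *Trpc1* in PMCA4-/- therefore rests on 1 probe set.

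Among the counted genes, those whose 4 values were most like the ones of *Trpc1* were *Gpr149*, an orphan receptor gene, *Dpyd*, which encodes the enzyme that starts pyrimidine breakdown, and *Mdk*, which encodes the growth factor midkine. Likeness was the root mean square distance of log2 intensities over the 4 arrays, each gene centred on its own mean, and it was 0.09, 0.15 and 0.23. *Gpr149* had 117 and 121 in WT and 0.534 and 1.08 in PMCA4-/-. *Dpyd* had 71.0 and 81.1 against 0.351 and 0.572. *Mdk* had 140 and 148 against 0.557 and 0.808. These genes were picked for the likeness, so the shared pattern is no result. They passed the filter through their WT values, and the distances are set by PMCA4-/- values far under the array median.

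TRPM7 is a channel for magnesium, calcium and zinc with a kinase domain, and it is expressed in most tissues. *Trpm7* at 1416799_at had 1557 and 1716 in WT and 1731 and 1636 in PMCA4-/-, so the genotypes overlapped. The differences were 0.15 untreated and −0.07 with phenylephrine. At 1416801_at the values were 701, 669, 635 and 627, and at 1416800_at 425, 417, 403 and 406, with differences from −0.14 to −0.04 in both pairs. At 1431355_s_at they were 105, 137, 130 and 122, with 0.31 and −0.17. *Trpm7* was the gene with the smallest difference in the phenylephrine pair, where 13.1% of counted genes had a smaller one.

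**Figure D3:**
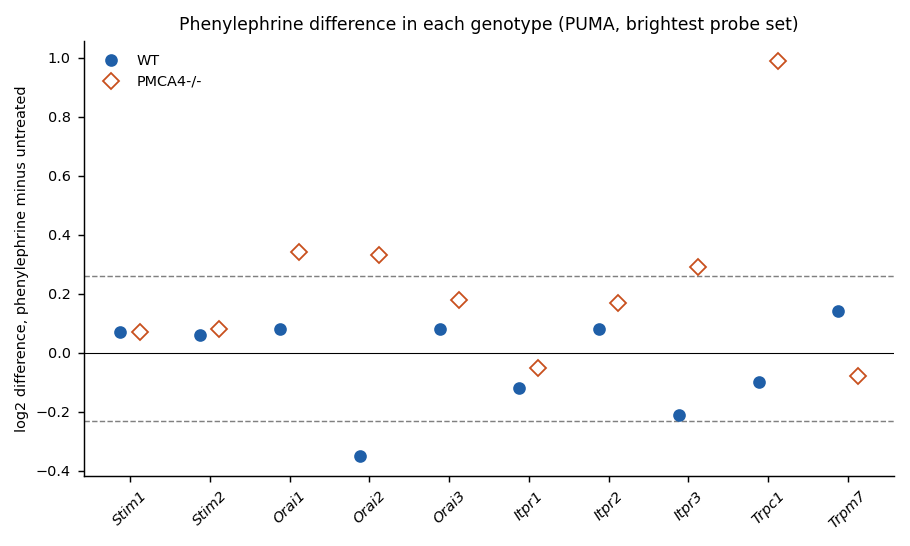
Log2 difference, phenylephrine minus untreated, of each channel gene in WT (filled circles) and PMCA4-/- (open diamonds), at the brightest probe set with PUMA; dashed lines at −0.23 and 0.26 enclose the central 90% of counted genes in WT. *Orai2*, *Itpr3*, *Trpc1* and *Trpm7* have points on opposite sides of 0, and the *Trpc1* point at 0.99 comes from intensities of 0.256 and 0.509.

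Arrays of the same genotype with and without phenylephrine lay much closer together than arrays of different genotypes. None of the 9 counted channel genes was at least 2-fold apart with phenylephrine in WT or in PMCA4-/-, where 0.473% and 0.508% of all counted genes were. The median difference of the channel genes was 0.07 in WT, beside 0.04 for all counted genes, and 0.17 in PMCA4-/-, beside 0.03. Their median size was 0.08 in WT, equal to that of all counted genes, and 0.17 in PMCA4-/-, beside 0.08. In PMCA4-/- 7 of 9 were higher with phenylephrine, and 61.3% of all counted genes were. With RMA at the same probe sets this contrast was not seen: the median in PMCA4-/- was 0.06 and the median size 0.07, beside 0.01 and 0.06 for all counted genes, and 5 of 9 were higher, beside 56.6%.

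In PMCA4-/-, *Orai1* at its brightest probe set went from 161 to 204 with phenylephrine, a difference of 0.34. In WT it went from 229 to 243, a difference of 0.08. The other *Orai1* probe set, 1424989_at, had differences of 0.02 in PMCA4-/- and 0.01 in WT. *Orai3* showed 0.18 in PMCA4-/- and 0.08 in WT, and *Itpr2* 0.17 and 0.08. *Orai2* at 1434762_at had 0.33 in PMCA4-/- and −0.35 in WT, and *Itpr3* had 0.29 and −0.21. Of these, *Orai1*, *Orai2* and *Itpr3* in PMCA4-/- were at or beyond 0.29, under which 95% of counted genes lay. With RMA the values in PMCA4-/- were smaller: 0.16 for *Orai1*, −0.02 for *Orai2* and 0.15 for *Itpr3*. At their brightest probe sets *Stim1*, *Stim2* and *Itpr1* had between −0.12 and 0.08 in either genotype. The other *Itpr1* probe set, 1417279_at, had 0.33 in PMCA4-/- and −0.38 in WT, and with RMA 0.13 and −0.28. The other *Stim1* probe set, 1436945_x_at, had 0.21 in PMCA4-/- and −0.04 in WT.

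At the brightest probe set of each gene, the genotype difference of the phenylephrine pair minus that of the untreated pair follows from the same 4 values. It was 0.69 for *Orai2*, 0.50 for *Itpr3* and 0.26 for *Orai1*, and −0.22 for *Trpm7*. For *Stim1*, *Stim2*, *Orai3*, *Itpr1* and *Itpr2* it was 0.01 to 0.10. None of these was tested, since each condition had 1 array.

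**Figure D4:**
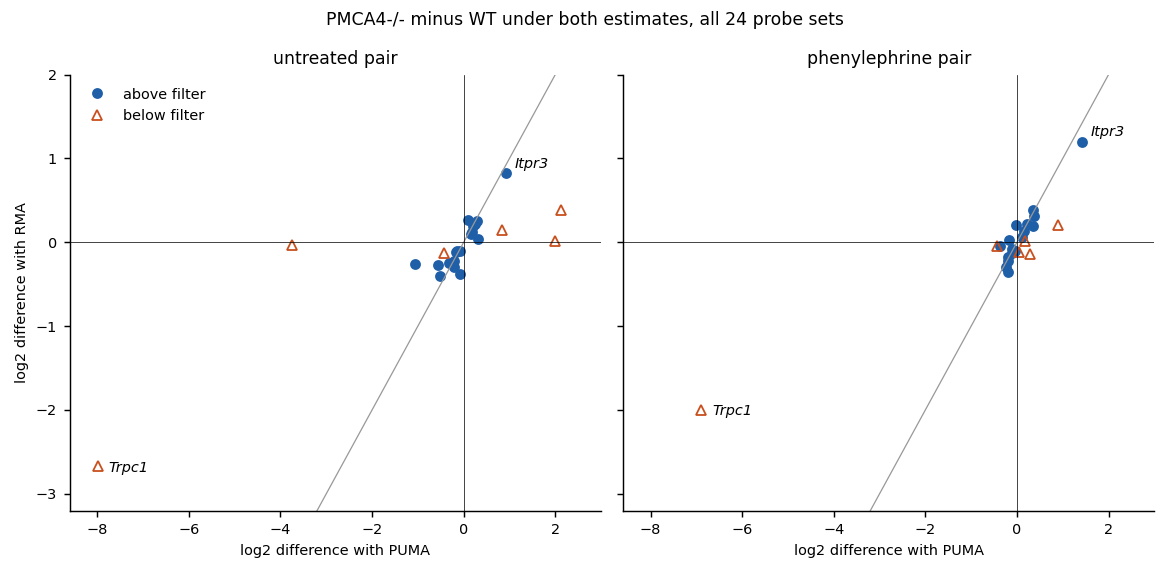
Log2 difference, PMCA4-/- minus WT, at all 24 probe sets, with PUMA on the horizontal axis and RMA on the vertical axis, for the untreated pair (left) and the phenylephrine pair (right); filled circles are above the intensity filter, open triangles below it, and the slanted line marks equal values. The 18 probe sets above the filter have a median gap between the estimates of 0.06 and 0.05, with *Orai2* at −1.06 against −0.26 the furthest from the line, and the 6 below it have a median gap of 1.87 and 0.41.

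The same arrays were also summarised with RMA, which made it possible to see which differences depend on the estimate of intensity. Above the filter, PUMA and RMA gave the same sign at 18 of 18 probe sets in the untreated pair, and 16 of 18 with phenylephrine. The median gap between them was 0.06 and 0.05 on the log2 scale, and the widest was 0.797, for *Orai2* at 1434762_at. There RMA gave 266, 224, 222 and 219, with −0.26 untreated and −0.04 with phenylephrine. At 1434763_at, the other *Orai2* probe set, RMA gave −0.38 and 0.20. Thus the direction of *Orai2* in the untreated pair was the same in all readings, and its size was not.

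For the small phenylephrine differences, the 2 estimates gave the same sign at 14 of 18 probe sets in WT and 11 of 18 in PMCA4-/-. Below the filter the estimates agreed in sign at 6 of 6 probe sets in the untreated pair, with a median gap of 1.87. In the phenylephrine pair they agreed at 4 of 6, with a median gap of 0.41. *Stim1*, *Stim2*, *Orai1*, *Orai3*, *Itpr2* and *Itpr3* kept their direction between genotypes at every probe set above the filter, in both pairs and under both estimates.

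The RefSeq annotation of mouse assembly GRCm38.p6 places *Stim2*, *Orai1* and *Orai2* on chromosome 5, *Stim1* and *Orai3* on 7, *Itpr1* and *Itpr2* on 6, *Itpr3* on 17, *Trpc1* on 9 and *Trpm7* on 2. *Atp2b4* is on chromosome 1, which holds 0 of the 10 genes. For *Stim2* the 100 counted genes closest to it along the chromosome had a median of −0.39 untreated and −0.40 with phenylephrine, more negative than the −0.22 and −0.20 of *Stim2* itself. Over all counted genes of chromosome 5 the median was −0.13 and −0.12. Relative to its neighbours *Stim2* was higher in PMCA4-/-, by 0.18 and 0.21. Around *Trpc1* the neighbours had −0.31 and −0.32, and the counted genes of chromosome 9 a median of −0.30 in both pairs.

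Around *Stim1* the neighbours had −0.15 and −0.04, which put *Stim1* at 0.36 and 0.25 relative to them. For the other 7 genes the neighbours lay between −0.04 and 0.05. *Itpr3* kept 0.96 and 1.38 relative to its neighbours, *Orai1* −0.50 and −0.25, *Orai2* −1.02 and −0.36 and *Orai3* −0.29 and −0.24. What sets the medians of neighbouring genes was not tested.

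**Figure D5:**
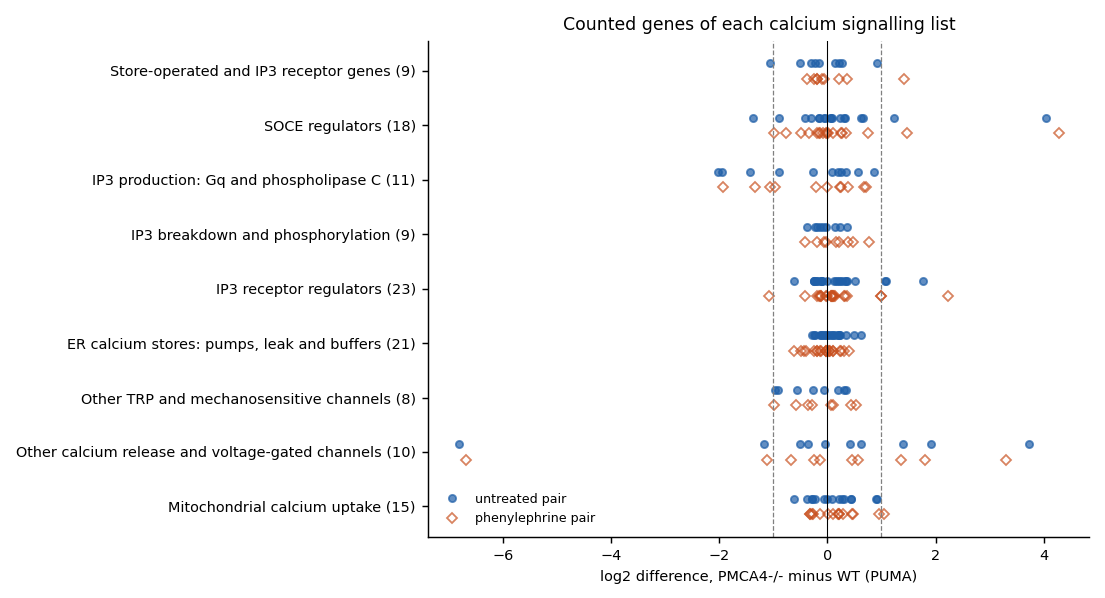
Log2 difference, PMCA4-/- minus WT with PUMA, of each counted gene of the channel set and of 8 other calcium signalling lists (number of counted genes in brackets); filled circles are the untreated pair, open diamonds the phenylephrine pair and dashed lines mark 2-fold. The point at −6.82 is *Cacna2d1* and those above 4 are *Tmem178*.

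The channel genes were set beside 8 lists of genes that act with them. For these lists, values under the array median were raised to it before the 2-fold count, a choice made after seeing the data. Counted in this way, the share of all counted genes at or past 2-fold in PMCA4-/- was 4.46% higher and 4.77% lower untreated, and 4.8% and 4.88% with phenylephrine. Regulators of store-operated entry held 18 counted genes of 26, with 2 higher and 1 lower untreated, and 2 and 0 with phenylephrine. Their median difference was 0.06 and −0.01, and the untreated median was −0.03 with RMA. *Tmem178*, whose product is known in mouse osteoclasts to restrain STIM1, had 89.7 and 73.5 in WT and 1488 and 1434 in PMCA4-/-. It was the gene furthest apart in this list, with log2 differences of 4.05 and 4.29. *Cav1*, the caveolin of plasma membrane caveolae where calcium entry channels gather, had 1811 and 1474 against 4236 and 4089, with 1.23 and 1.47.

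The genes that make IP3 held 11 counted of 16, with 0 higher and 1 lower untreated, 0 higher and 2 lower with phenylephrine, and medians of 0.08 and 0.00. With RMA the medians were −0.18 and −0.05, so the untreated median had no stable direction. Without raised values 0 were higher and 3 lower in each pair, against 5.16% and 5.32% lower among all counted genes. *Plce1*, a phospholipase C that Ras proteins activate, had 67.4 and 67.1 in WT and 16.6 and 17.7 in PMCA4-/-. It passed the intensity filter through WT alone. With raised values it was at least 1.98-fold and 1.97-fold lower, so it is not among the genes called lower here. Its differences as given were −2.02 and −1.93. *Plcb1*, a phospholipase C downstream of Gq, had 107 and 119 against 39.8 and 57.1, with −1.43 and −1.06, and RMA put its difference at −1.09 and −0.78. Among the 9 counted of 11 genes that break down or phosphorylate IP3, none was 2-fold apart, with medians of −0.08 and 0.16.

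Regulators that bind or modify the IP3 receptors held 23 counted of 27, with 3 higher and 0 lower untreated, 2 and 0 with phenylephrine, and medians of 0.13 and 0.08. Without raised values 1 was also lower with phenylephrine. *Bok*, a BCL-2 family gene whose protein binds IP3 receptors, had 74.6 and 66.5 in WT against 252 and 312 in PMCA4-/-, with 1.76 and 2.23. *Mrvi1*, a substrate of cGMP-dependent kinase attached to the type 1 receptor, had 230 and 229 against 486 and 459, with 1.08 and 1.00, and with RMA 0.89 and 0.66. The pumps, leak channels and buffers of the endoplasmic reticulum held 21 counted of 28 and none 2-fold apart in either pair, with medians of 0.04 and −0.03. With RMA their untreated median was −0.05.

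Other TRP and mechanosensitive channels were mostly dim, with 8 counted of 30 and none 2-fold apart, and medians of −0.17 and −0.11. Other release and voltage-gated channels held 10 counted of 24, with 3 higher and 2 lower in each pair, against the shares of all counted genes given above, and medians of 0.19 and 0.15. *Cacna2d1*, an accessory subunit of voltage-gated calcium channels, had 461 and 443 in WT against 4.08 and 4.30 in PMCA4-/-, at least 13.6-fold and 13.0-fold lower, and so passed the filter through WT alone. The β subunit gene *Cacnb2* had 10.7 and 15.2 in WT against 140 and 149, at least 4.12-fold and 4.39-fold higher, and passed it through PMCA4-/- alone. The pore genes *Cacna1a*, of P/Q-type channels, and *Cacna1g*, of T-type channels, were also higher, with 1.92 and 1.81 for *Cacna1a* and 1.40 and 1.36 for *Cacna1g*.

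Mitochondrial calcium uptake held 15 counted of 15, with none 2-fold apart in the untreated pair and 1 higher in the phenylephrine pair, and medians of 0.08 and 0.20. Some genes that were 2-fold apart with raised values were not described, and are named here after their values were seen. Among them were *Unc93b1* (lower, untreated), *Plch1* (lower, with phenylephrine), *Mcub* (higher, with phenylephrine) and *P2rx7* (lower, both pairs). No counted gene of the 8 lists was 2-fold apart with phenylephrine in either genotype. The differences of *Tmem178* and *Cacna2d1* between genotypes were thus larger than those of any counted channel gene, of which *Itpr3* had the largest in the phenylephrine pair and *Orai2* in the untreated pair.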

How the data were processed

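The values used were the authors' deposited intensity estimates for 4 arrays, linear in scale, a PUMA table and a Robust Multiarray Average (RMA) table. A series table held the same 180148 PUMA values within 0.0001. The submitters' notes name MAS5 and RMA. Tool versions, the array annotation release and the genome build were not given in the sources used here. The paper names MOE430A arrays, the tables hold 45037 probe sets, and 3 RNA pools per genotype are described while each condition has 1 array. Columns of the authors' fold changes and probabilities of a positive log ratio were not used.

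Values were log2-transformed without a pseudocount (Python 3.11.15, numpy 2.4.6, pandas 2.3.3, matplotlib 3.10.9). Of the probe sets, 37818 had 1 symbol, and 1394 had several, 5820 none and 5 an unreadable one. Symbols were updated through RefSeq (GRCm38.p6): 31088 were current, 3520 matched by accession, 394 by synonym and 2816 were kept. With 1 array per condition no precision between cultures is known.

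The channel genes, the 8 pathway lists and the 8 marker lists were chosen with earlier results of these data known. Named genes were every channel gene, up to 4 genes per pathway list with a difference of at least 2-fold of equal sign in both genotype pairs, up to 3 per marker list by intensity or by that rule, the defining markers that were dim, and the 3 genes closest to a channel gene so separated (*Trpc1*). Alternatives were RMA, median centring, quantile normalization, the median over probe sets, raising values to the array median, no filter, an upper quartile filter and a 1.5-fold threshold. Added after seeing the data were subtraction of the 100 nearest genes, raised values for the pathway list counts and RMA for the medians with phenylephrine. RMA medians and counts without raised values were also added for some pathway lists. The markers *Lum*, *Col1a1* and *Adgre1* were named after their values were seen.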

Additional observations from a re-analysis of the deposited data

Results flagged for a closer look

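For 4 of the channel genes the phenylephrine difference at the brightest probe set had opposite signs in the 2 genotypes. Each condition had 1 array, and the difference between genotypes was not tested. The share of all counted genes with opposite signs was not computed, so the count of 4 is not read as a result. Over all counted genes the median size of the phenylephrine difference was 0.08 in each genotype. On the log2 scale with PUMA, *Orai2* had −0.35 in WT and 0.33 in PMCA4-/-, a difference of 0.69. Its other probe set, 1434763_at, had the same sign in both genotypes, with 0.07 and 0.13, but −0.24 and 0.34 with RMA. *Itpr3* had −0.21 and 0.29, a difference of 0.50. *Trpm7* had 0.14 and −0.08, a difference of −0.22. Its other probe sets had −0.07 and −0.02 at 1416801_at, −0.03 and 0.01 at 1416800_at, and 0.38 and −0.10 at 1431355_s_at. *Itpr1* is not among the 4, but its other probe set, 1417279_at, had −0.38 and 0.33, and with RMA −0.28 and 0.13. *Trpc1* had −0.10 and 0.99, a difference of 1.09, with both PMCA4-/- intensities under 1. With RMA the signs were again opposite for *Itpr3*, at −0.24 and 0.15, for *Trpm7*, at 0.11 and −0.10, and for *Trpc1*, at −0.23 and 0.44, whereas *Orai2* had −0.25 and −0.02.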

How the results depend on the processing

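No paired analysis was possible because each condition had 1 array, and leaving out a replicate could not be run for the same reason. In the untreated pair, the 1 channel gene at least 2-fold apart became 0 with RMA, 0 with the median over probe sets and 0 with the upper quartile filter (intensity above 257, which leaves 7 of the 10 genes, without *Orai1*, *Orai2* and *Trpc1*). It became 2 without a filter (*Orai2* and *Trpc1*) and 2 with a 1.5-fold threshold (*Orai2* and *Itpr3*). In the phenylephrine pair the count of 1 became 2 without a filter (*Itpr3* and *Trpc1*). The untreated median of −0.16 became 0.15 with the upper quartile filter and 0.15 with the nearest genes subtracted, an alternative chosen after seeing the data. The causes were not tested beyond the genes that each filter keeps. The counts for phenylephrine stayed at 0 under every alternative. Of 220 values of single channel genes under the alternatives, 197 moved by less than 0.2 on the log2 scale, about the SD of the phenylephrine differences, and 23 moved further. *Stim2* turned from −0.22 to 0.18 and from −0.20 to 0.21 with the nearest genes subtracted, and *Itpr1* in the phenylephrine pair from −0.10 to 0.02 with the median over probe sets. Untreated and with phenylephrine, *Itpr3* lay at 0.82 to 0.97 and at 1.20 to 1.44, and *Orai2* from −1.06 to −0.26 and from −0.37 to −0.04. Intensities under the array median limit *Trpc1*, which ranged from −8.09 to −0.93 and from −6.89 to −0.83.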
